A study of Vitis vinifera with 6 samples.

Results

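The genes described here are 6 glucosyltransferase genes of grapevine whose identifiers begin with VIT_16s0050g, which places them on chromosome 16. The study annotated VIT_16s0050g01580, VIT_16s0050g01590 and VIT_16s0050g01680 as UDP-glucose:anthocyanidin 5,3-O-glucosyltransferases, VIT_16s0050g00240 and VIT_16s0050g01610 as UDP-glycosyltransferase 88A4, and VIT_16s0050g01660 as UGT88A1. Below they are also written by the end of the identifier, as g01580 and so on. They are 6 of the 34369 genes that have a probe on the array, and they were taken from the list of genes that the study called up-regulated, by at least 2-fold, in leaves over-expressing VvWRKY26, which encodes a WRKY transcription factor related to PH3 of petunia, a regulator of vacuolar acidity in petals. The genes were thus selected on their intensities in over-expressing leaves against those in control leaves, on the same arrays as below, and the difference between these groups is given as a description without a test.

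Family 1 UDP-glycosyltransferases move a sugar, mostly glucose from UDP-glucose, onto small molecules such as flavonoids, phenylpropanoids and hormones. The glucose makes the acceptor more soluble and more stable, and anthocyanins are stored in the vacuole in this form. The name anthocyanidin 5,3-O-glucosyltransferase comes from a rose enzyme that glucosylates the 5 and then the 3 position of an anthocyanidin, and relatives in the UGT88 family include UGT88A1 of Arabidopsis, which glucosylates flavonoids in vitro, and enzymes of snapdragon and apple that act on a chalcone and a dihydrochalcone. The acceptors of the grapevine enzymes were not measured here, and Sultana is a white-berried cultivar.

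The arrays measured RNA of young leaves of micropropagated Vitis vinifera cv. Sultana plantlets, 3 control lines and 3 lines carrying 35S:VvWRKY26, with 1 line per array. The plantlets were vacuum infiltrated with Agrobacterium tumefaciens strain C58C1 at an age of 5 weeks, 6 plants per construct, and leaves were collected after 6 days. Both groups share this infiltration: the methods describe the controls as having received a pK7WG2.0 vector with a non-coding sequence, although the labels call them wild type. The over-expression was transient and driven by the 35S promoter, which is active in most plant cells, and the methods chose the lines of both groups by their VvWRKY26 level. An intensity from whole leaves cannot tell more RNA per cell from more cells of a type.

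Intensities below are log2 of the background-subtracted spot intensity minus the 75th percentile of its array, so that 0 is the level of the 75th percentile and 1 unit is a 2-fold difference. The 75th percentile was between 799 and 1613 intensity units, and 73.9% to 94.9% of the gene probes were well above background, with the arrays of scan 2 at 94.7% and 94.9% and the others at 73.9% to 77.6%. The arrays came from 3 scans with 1 array of each group in each: control replicate 1 with 35S:VvWRKY26 replicate 1 in scan 1, control replicate 2 with 35S:VvWRKY26 replicate 3 in scan 2, and control replicate 3 with 35S:VvWRKY26 replicate 2 in scan 3. In the normalized table that the authors deposited, the column of 35S:VvWRKY26 replicate 2 equals the mean of replicates 1 and 3 in 34369 of 34369 genes, so that a choice of genes from that table did not use its own intensities. Where values are given on 5 arrays, this array was left out. The leaf markers PSBS, a photosystem II protein, and TIC62, a chloroplast import protein, were well above background on all 6 arrays. The probe of VvWRKY26 (VIT_08s0040g03070) read 3.12, 3.25 and 2.57 in control replicates 1 to 3 and 3.40, 3.69 and 3.32 in the over-expressing lines, a difference of 0.49 (SE 0.34), with the groups apart by a small margin. Whether that probe also reads the RNA of the transgene is not given in the sources used here. The study verified the over-expression by RT-PCR and qPCR, which were not analysed here. The median difference over all genes was −0.05, and limma called 0 of the 34369 genes (0.00%) at an adjusted p of 0.05, with 355 at an unadjusted p under 0.05; the methods' t-test had 0 after adjustment and 787 before it.

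The 6 probes were each well above background on all 6 arrays, and 0 of their spots were marked as outliers. By identifier number, 5 of the genes lie close together, within 10 steps from g01580 to g01680, whereas g00240 stands 134 steps before g01580 with 124 other array genes in between. Probe sequences were not analysed here, so cross-hybridization between these similar genes was not tested. In the ratio of group means on the 5 arrays of the authors' normalized table, taken here as the measure behind the 2-fold threshold, the values were 2.54 (g00240), 2.75 (g01580), 2.87 (g01590), 2.38 (g01610), 3.60 (g01660) and 3.71 (g01680). The gene nearest to the 2-fold threshold from inside was thus g01610, at 2.38, and the nearest of the neighbouring genes outside it was VIT_16s0050g01600, at 1.79.

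All 6 genes were higher in the over-expressing lines, with a median log2 difference of 1.43 on 6 arrays and 1.72 on 5. All 6 were at least 2-fold higher on 6 arrays, as were 2.01% of all genes, and all 6 on 5 arrays, as were 5.18% of all genes. As the genes were chosen for this, nothing is read from these counts. At an adjusted p of 0.05 in limma, 0 of the 6 passed over all genes.

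Among the genes annotated as anthocyanidin 5,3-O-glucosyltransferases, VIT_16s0050g01680 differed most between the groups. Control replicates 1 to 3 read −0.50, −3.81 and −0.88, whereas 35S:VvWRKY26 replicates 1 to 3 read 0.93, 1.31 and 0.45. Every over-expressing line lay above every control, and the controls spread far more widely than the over-expressing lines with control replicate 2 the low one and 9.92-fold between the highest and the lowest. The means were −1.73 ± 1.81 (SD, n = 3) and 0.90 ± 0.43 (SD, n = 3), a difference of 2.63 (SE 0.93) or 6.18-fold. Without control replicate 2 the difference was 1.59. This gene was also the one with the widest lead of 35S:VvWRKY26 replicate 2, which stood 1.81 above the highest control.

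For VIT_16s0050g01580 the controls read 1.14, 0.14 and −0.72, and the over-expressing lines 1.61, 0.94 and 2.05. The groups overlapped, since 35S:VvWRKY26 replicate 2 lay 0.20 below control replicate 1, although it was 1.66 above the control of its own scan. The means were 0.19 ± 0.93 (SD, n = 3) and 1.53 ± 0.56 (SD, n = 3), a difference of 1.34 (SE 0.59) or 2.54-fold, and without control replicate 3 the difference was 0.89.

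The intensities of VIT_16s0050g01590, the gene with the next identifier, were 0.01, −0.61 and −2.34 in the controls and 0.61, −1.49 and 1.02 in the over-expressing lines. Here 35S:VvWRKY26 replicate 2 fell among the controls, 1.50 below the highest of them and 0.52 below their mean. The spread within each group was larger than the difference between them: the means were −0.98 ± 1.22 (SD, n = 3) and 0.045 ± 1.35 (SD, n = 3), and the difference was 1.03 (SE 0.91) or 2.04-fold. It was 1.80 without 35S:VvWRKY26 replicate 2, 0.54 without 35S:VvWRKY26 replicate 3 and 0.34 without control replicate 3. Of the 6 genes, g01590 had the smallest difference on 6 arrays, whereas on 5 arrays, at 1.80, it exceeded g00240, g01580 and g01610.

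The genes annotated as UDP-glycosyltransferase 88A4 both had groups that did not overlap. VIT_16s0050g00240 read −3.34, −4.10 and −5.04 in the controls and −2.75, −2.61 and −2.56 in the over-expressing lines. The over-expressing lines were nearly alike and the controls were not, with means of −2.64 ± 0.098 (SD, n = 3) against −4.16 ± 0.85 (SD, n = 3) and a difference of 1.52 (SE 0.49) or 2.87-fold. Its spots lay near the low end of the scale, at 24.2 to 159 intensity units in the controls and 140 to 243 in the over-expressing lines, and the median spot signal was 3.59 to 10.2 times the local background. With normexp, another background correction, the difference was 0.55, where the median of all genes was −0.33.

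VIT_16s0050g01610, the other gene with this annotation, read 2.25, 1.31 and 1.76 in the controls and 2.85, 2.58 and 3.27 in the over-expressing lines. The groups were apart and of similar spread, with means of 1.77 ± 0.47 (SD, n = 3) and 2.90 ± 0.35 (SD, n = 3). The difference was 1.13 (SE 0.39) or 2.19-fold, and 1.29 on the 5 arrays. Its standard error was the smallest of the 6 genes.

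VIT_16s0050g01660, annotated as UGT88A1, read −1.45, −2.48 and −2.80 in the controls and −0.16, −1.31 and −0.40 in the over-expressing lines. The groups did not overlap, but 35S:VvWRKY26 replicate 2 lay only 0.14 above control replicate 1. The means were −2.24 ± 0.71 (SD, n = 3) and −0.62 ± 0.61 (SD, n = 3), a difference of 1.62 (SE 0.52) or 3.08-fold, and 1.96 on the 5 arrays. It was the only one of the 6 apart from g01680 with a difference above 1 within each scan.

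**Figure D1:**
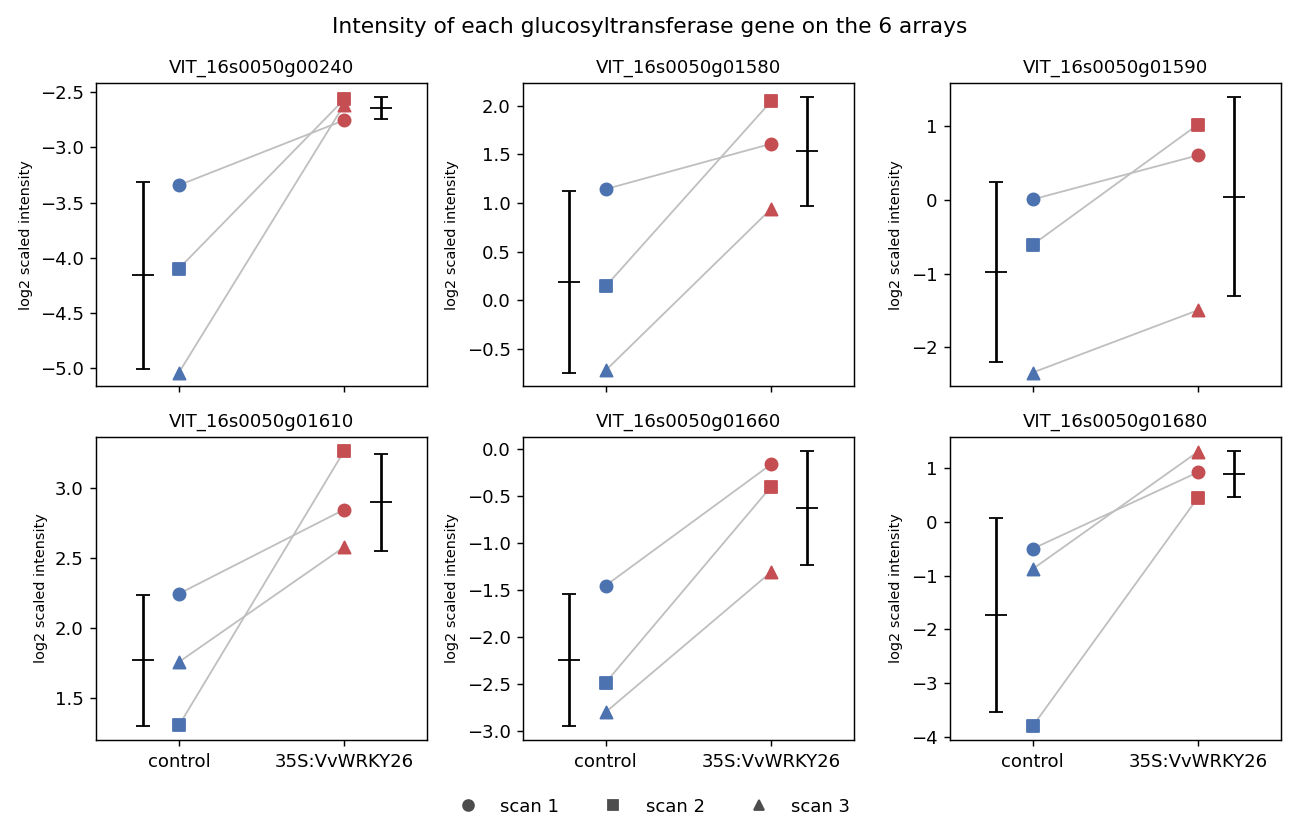
Log2 intensity relative to the 75th percentile of the array (vertical axis, separate scale for each gene) in the 3 control (blue) and 3 35S:VvWRKY26 (red) arrays; marker shapes give the scan, lines join the arrays of 1 scan, and bars are mean ± SD of 3 arrays. Each line runs upward, while the groups overlap for g01580 and g01590.

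The 6 genes differed in how clearly the single arrays of the groups stood apart. The groups did not overlap for 4 of the 6 genes (g00240, g01610, g01660 and g01680), as for 2.43% of all genes in this direction. In 35S:VvWRKY26 replicate 2 alone, the array whose own intensities did not enter the authors' table, the same 4 of 6 genes lay above all 3 controls, as did 14.0% of all genes. The leads over the highest control were 0.73 (g00240), 0.34 (g01610), 0.14 (g01660) and 1.81 (g01680), and the other two genes, g01580 and g01590, were −0.20 and −1.50 from it. Since the control arrays did enter the choice of the genes and 35S:VvWRKY26 replicate 2 is a single array, these counts carry no test. The count of 4 was 2 with normexp background correction and 1 without scaling of the arrays, both for groups that did not overlap and for this array alone. The shares of all genes were not computed under these settings, so nothing is read from this change.

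Within each scan, the over-expressing line was compared with the control scanned with it, which leaves the common shift of a scan out. All 6 genes were higher within each of the 3 scans, 18 of 18 differences, as were 11.6% of all genes. Both arrays of scans 1 and 2 and the control of scan 3 entered the choice of the genes. The signs in scans 1 and 2 thus come from the selecting intensities, and the count of 18 carries no test. In scan 1 the differences were 0.59 (g00240), 0.47 (g01580), 0.60 (g01590), 0.60 (g01610), 1.29 (g01660) and 1.43 (g01680), with a median of 0.60. In scan 2 they were 1.54, 1.90, 1.63, 1.96, 2.08 and 4.26 in the same order, with a median of 1.93. Scan 3, with the array that did not enter the authors' table, gave 2.43, 1.66, 0.85, 0.82, 1.49 and 2.19, a median of 1.58. The medians of all genes were near 0, at 0.02, −0.07 and −0.06 in scans 1, 2 and 3. In scan 3 alone, all 6 genes were higher, as were 46.8% of all genes, and 4 of the 6 by at least 2-fold, as were 7.06% of all genes. Since the control of scan 3 entered the choice, these counts carry no test either.

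The smallest of the differences was that of scan 1 in all 6 genes, which was so in 31.5% of all genes. Its control, replicate 1, was the highest of the controls in all 6 genes, against 20.6% of all genes. The largest was that of scan 2 in all but g00240, for which it was that of scan 3. With scan as a block, the standard errors of the 6 differences were 0.31 to 0.59, against 0.39 to 0.93 without it, and 0 genes of the array passed an adjusted p of 0.05 in limma, with 1822 at an unadjusted p under 0.05. Over all genes, arrays of the same scan deviated together from their group means, with Pearson's r of 0.63, 0.69 and 0.54. The slide of each array could not be told, since the headers give control replicates 1 and 2 the same slide and position, and likewise 35S:VvWRKY26 replicates 1 and 3.

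**Figure D2:**
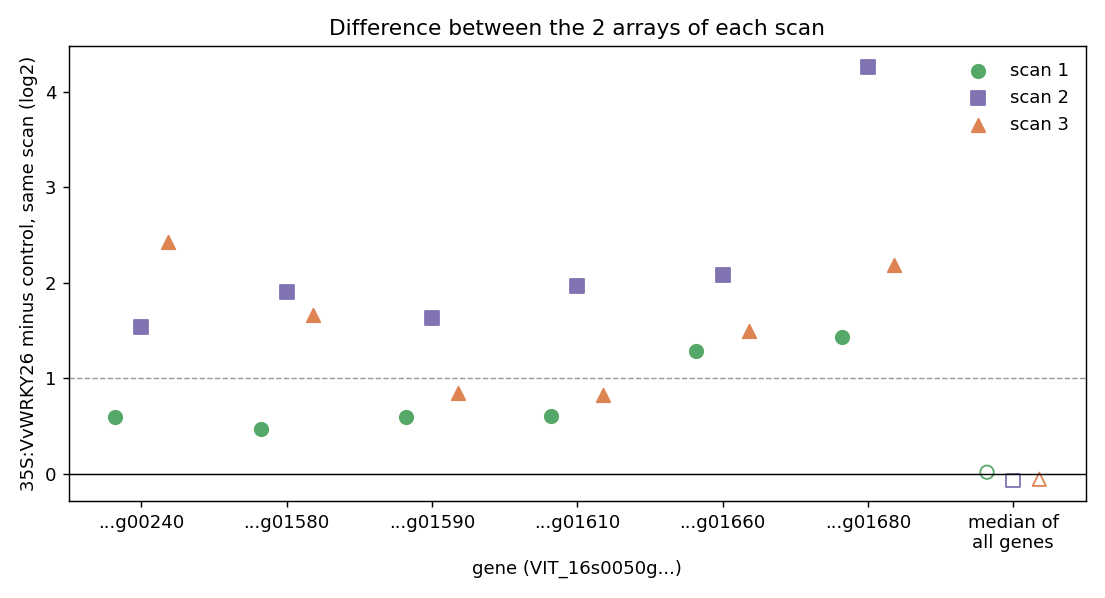
Log2 difference between the over-expressing and the control array of the same scan (vertical axis) for each gene and, as open markers, the median of all genes; the dashed line marks a 2-fold difference. All 18 differences lie above 0, those of scan 1 lowest, and g01680 in scan 2 is highest at 4.26.

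The 6 genes were then compared with each other over the arrays. Pearson's r over 6 arrays, which are few and share scans, had a median of 0.83 over the 15 pairs, with a range from 0.19 to 0.95, and Spearman's rho a median of 0.77, from 0.26 to 0.94. For scale, the median r of these genes with 23454 other genes that were well above background on all 6 arrays was −0.02, with quartiles of −0.41 and 0.38. As the shared difference between the groups chose the genes, it also enters these coefficients. They are a description without a test.

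Over the 6 arrays, g01680 had the lower coefficients. The 10 pairs without it had r of 0.62 to 0.95 with a median of 0.87, and the 5 pairs with it had r of 0.19 to 0.85 with a median of 0.66. The closest pair was g01580 with g01660, at 0.95, and the most distant was g01590 with g01680, at 0.19, which carry the same annotation. Leaving out control replicate 2, in which g01680 was low, gave a median of 0.88 over the 15 pairs and left g01590 and g01680 at 0.32. Without control replicate 3 this order was lost: the 5 pairs with g01680 had a median of 0.82 and the 10 pairs without it 0.84, and it was g01590 that had the lower coefficients, from 0.15 with g01680 to 0.74 with g01580. Which gene follows the others least thus rests on single arrays.

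To take the difference between the groups out, the deviations of each array from its group mean were correlated. The median r of the 15 pairs was then 0.64, from −0.26 to 0.92, and that of these genes with the other genes was −0.08, with quartiles of −0.56 and 0.47. The 10 pairs without g01680 stayed between 0.40 and 0.92, with a median of 0.69. The highest were g01580 with g01590 at 0.92, g01580 with g01660 at 0.91, g01590 with g01660 at 0.88 and g01580 with g00240 at 0.86. Thus g01580, g01590 and g01660 followed each other closely from array to array. Each of them was lowest in both groups on the arrays of scan 3, so line and scan cannot be told apart here. The distant gene g00240, far from the others by identifier number, was among the closest to g01580. The 5 pairs with g01680 had a median of 0.03, from −0.26 to 0.57. The largest deviation of g01680 was in control replicate 2, at −3.81 against a control mean of −1.73. The deviations were not correlated again without that array, so its low coefficients may rest on it. Deviations from scan means, which keep the difference between the groups, gave a median of 0.96. The median was 0.98 for the 5 pairs with g01680 and 0.96 for the others. In each scan these deviations are equal and opposite for the control and the over-expressing array, and every difference within a scan was above 0. High coefficients are thus built in and do not show which genes follow each other.

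**Figure D3:**
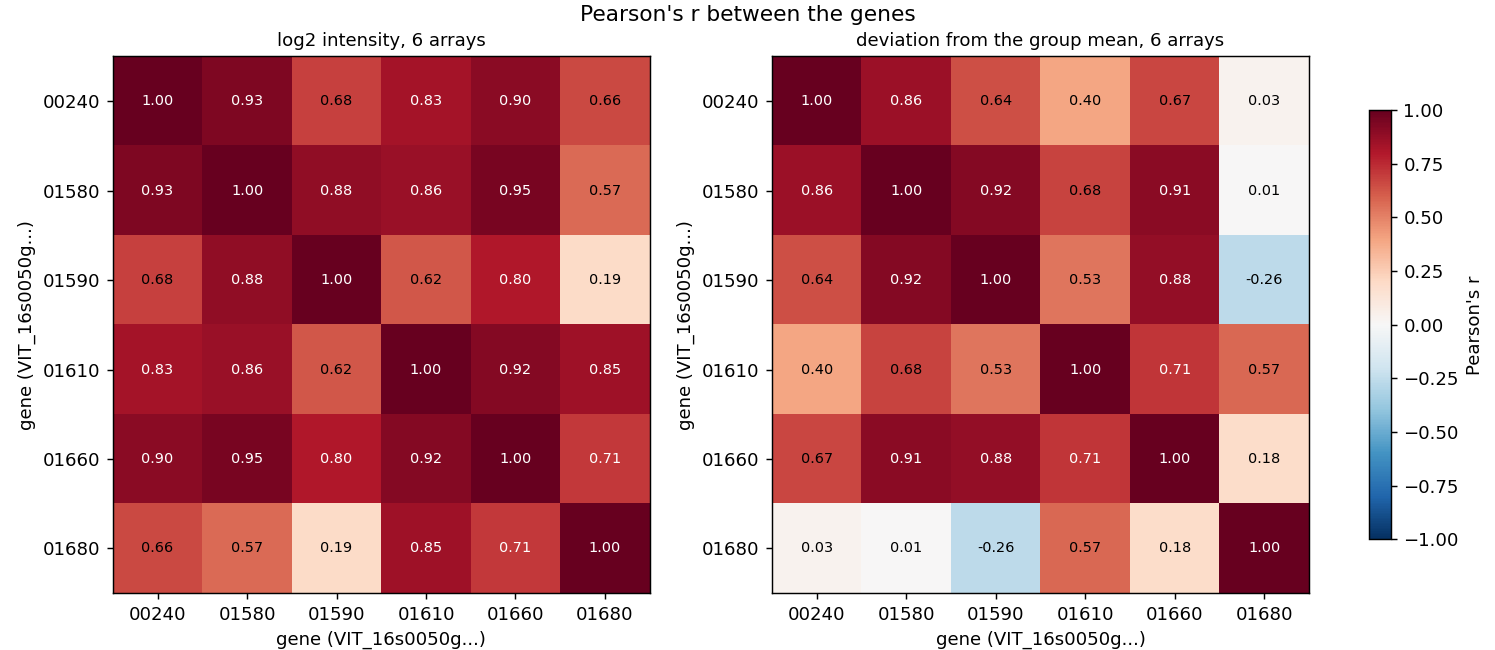
Pearson's r between the genes (last digits of VIT_16s0050g identifiers on both axes) over 6 arrays, for log2 intensities on the left and for deviations from the group mean on the right; the color scale runs from −1 to 1. In the right panel the coefficients with g01680 drop to −0.26 to 0.57, and the others stay at 0.40 or above.

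The 6 genes were also set against the VvWRKY26 probe, for which it is not known whether it reads the transgene. Over the 6 arrays, r was 0.87 (g00240), 0.68 (g01580), 0.43 (g01590), 0.49 (g01610), 0.63 (g01660) and 0.39 (g01680). As deviations from the group means, the coefficients were 0.71, 0.32, 0.19, −0.37, 0.08 and −0.38 in the same order. Spearman's rho over the 6 arrays was 0.77, 0.49, 0.31, 0.60, 0.77 and 0.83, so that g01680 was lowest by r and highest by rho. Among the deviations, only g00240 stayed above 0.5. The spread of the VvWRKY26 probe within the groups was small, with an SD of 0.36 in the controls and 0.19 in the over-expressing lines. The lines were chosen by their VvWRKY26 level and the genes by their difference between the same groups. Both choices enter r and rho over the 6 arrays, which are a description without a test. For scale, r of the neighbouring genes described below with VvWRKY26 ran from −0.63 (g01650) to 0.84 (g01600).

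The genes whose intensities were most like the mean profile of the 6 genes, each scaled to the same mean and spread, were ranked among the 23454 genes well above background on all arrays. The first was a histone H2B gene (VIT_16s0098g01810), with r of 0.998 and a difference between the groups of 1.00. It was followed by VIT_07s0141g00630, VIT_11s0052g00210, the brassinosteroid-related BEE3 gene (VIT_17s0000g03580) and VIT_01s0011g02710, with r between 0.993 and 0.996 and differences between 0.53 and 1.00. The histone H2B and BEE3 genes are also among those that the study called up-regulated, and the other identifiers have no name in the sources used here. An r of at least 0.9 was reached by 244 genes, or 1.04% of those ranked. The mean profile holds the difference between the groups by which the 6 genes were chosen. With 6 arrays and 23454 genes ranked, the highest r are also picked from many, so the order is a description without a test.

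The span from g01540 to g01720 has a probe for 17 of its 19 identifier steps, 5 of them for the genes described and 12 for neighbours. The median difference of the neighbours was 0.09, against −0.05 for all genes and 1.43 for the 6 genes described: 7 of the 12 were higher, as were 44.6% of all genes, 1 of 12 was at least 2-fold higher, against 2.01%, and 2 of 12 were higher within each of the 3 scans, against 11.6%. In the array left out of the authors' table, 35S:VvWRKY26 replicate 2, 3 of the 12 exceeded every control (g01600, g01710 and g01720), against 14.0% of all genes. The other 249 genes with VIT_16s0050g identifiers had a median difference of −0.06, and 9 of them were at least 2-fold higher. On the 5 arrays, 0 of the 12 neighbours were at least 2-fold higher, as were 5.18% of all genes. The genes described were chosen for a rise on these arrays, and the neighbours are the genes of the span not so chosen. The contrast between them is thus largely set by the choice and carries no test.

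The neighbour with the difference nearest to those of the 6 genes was VIT_16s0050g01600, which sits between g01590 and g01610 and has no name in the sources used here. It read −3.68, −2.72 and −3.55 in the controls and −2.50, −1.81 and −2.33 in the over-expressing lines. The groups did not overlap, and the difference was 1.10 (SE 0.41) or 2.15-fold, about that of g01610. In an exact permutation test, run because its groups were apart, the two-sided p was 0.1. This is the smallest that 3 arrays against 3 can give, and groups that do not overlap always give it, so it adds no support. The adjusted p in limma was 0.999983. The gene was the single neighbour past 2-fold of 12, and it was named after its values were seen. Across the arrays it followed g01590 less than VvWRKY26, with r of 0.21 and 0.84.

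VIT_16s0050g01620, next to g01610, read 0.76, −3.73 and −1.07 in the controls and −0.64, −1.56 and −0.13 in the over-expressing lines. It shared with g01680 a low value in control replicate 2, with r of 0.66 between them, but the groups overlapped and the difference was 0.57 (SE 1.16, adjusted p = 0.999983 in limma). VIT_16s0050g01650, between g01620 and g01660, ran against g01590, with r of −0.90 and a difference of −0.56 (SE 0.60, adjusted p = 0.999983 in limma). For VIT_16s0050g01670, which sits between g01660 and g01680, the difference was −1.26 (SE 1.23, adjusted p = 0.999983 in limma), and only 2 of the 6 arrays gave a spot well above background. The differences of the neighbours thus had both signs.

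**Figure D4:**
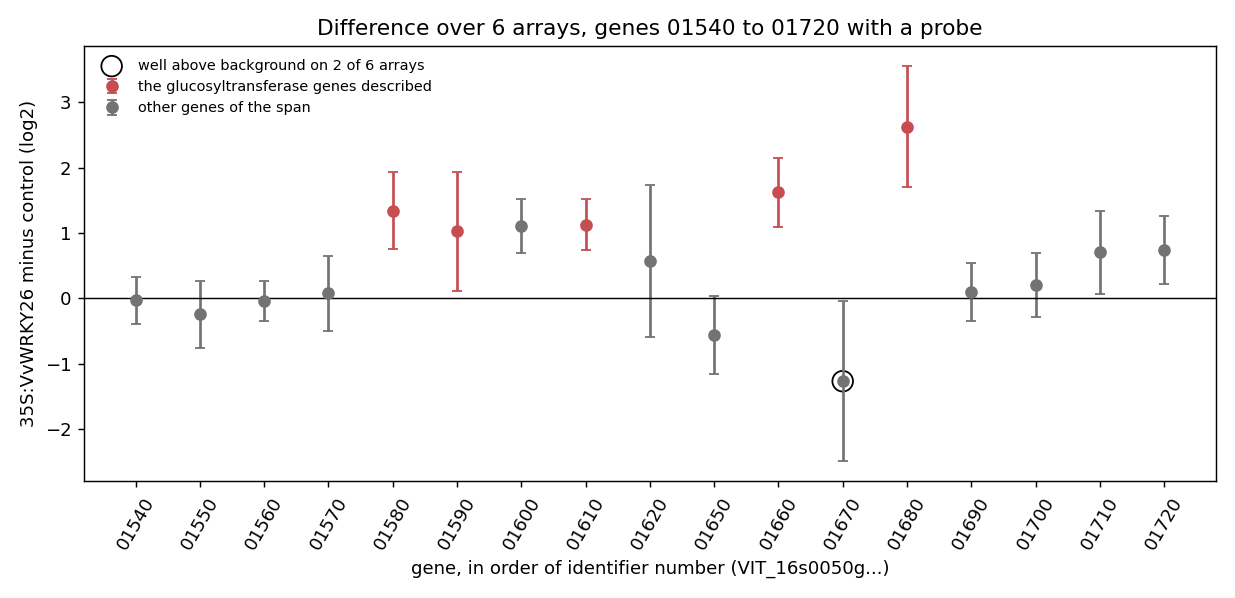
Log2 difference between over-expressing and control lines on 6 arrays (vertical axis), with its standard error in limma as bars, for the 17 genes of the span in identifier order; red marks the genes described and grey the neighbours. The red points lie between 1.03 and 2.63, and the neighbours between −1.26 and 1.10. The red genes were chosen for a rise on these arrays, so the contrast between the colors is largely set by that choice.

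Other UDP-glycosyltransferases of the study's up-regulated genes were set beside the 6. All 5 of them were higher, with a median difference of 1.23 on 6 arrays and 2.03 on 5, which was again fixed by their choice. One of them, a flavonol 3-O-glucosyltransferase gene (VIT_19s0014g01970), had a spot well above background in only 1 of the 3 controls and 2 of the 3 over-expressing lines, so its difference is not exact. VvGT1 (VIT_03s0091g00040), which the study names as a hydroxybenzoate/hydroxycinnamate glucosyltransferase in one place and as a limonoid glucosyltransferase in another, was the only one of the 5 whose groups did not overlap: it read −2.21, −3.62 and −2.27 in the controls and −0.15, 1.11 and −0.26 in the over-expressing lines, a difference of 2.93 (SE 0.60). In this it resembled g01680, which also had its lowest control in replicate 2 and its highest value in 35S:VvWRKY26 replicate 2. Groups that did not overlap in this direction were found in 1 of the 5, against 2.43% of all genes. Of these 5 genes, 1 exceeded every control in 35S:VvWRKY26 replicate 2, against 14.0% of all genes and 4 of the 6 genes described. The difference between 1 of 5 and 4 of 6 was not tested.

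Anthocyanidins, the acceptors for which g01580, g01590 and g01680 are named, are products of the flavonoid pathway. Of 8 genes of the flavonoid and phenylpropanoid pathway that the study names, 8 were higher, against 44.6% of all genes, and 7 at least 2-fold, against 2.01%, with a median difference of 1.48 on 6 arrays and 1.76 on 5, and 0 passed an adjusted p of 0.05 in limma. The regulator MYBPA1 (VIT_15s0046g00170) had a difference of 2.86 (SE 0.57), and CHS1 (VIT_14s0068g00930), a chalcone synthase at the entry of the pathway, 2.62 (SE 0.97). Differences of 1.34 for PAL (VIT_06s0004g02620), the first enzyme of the phenylpropanoid pathway, and 1.27 for F3H2 (VIT_18s0001g14310), a flavanone hydroxylase, were of the size of those of g01580 and g01610. Like the 6 genes, 7 of these 8 were higher within each scan, against 11.6% of all genes. The exception was ANR (VIT_00s0361g00020), an anthocyanidin reductase, with a difference of 0.35 (SE 1.17) on 6 arrays. ANR was lower in scan 3, where its spot in 35S:VvWRKY26 replicate 2 was not well above background. The groups did not overlap for 4 of the 8, against 2.43% of all genes. MYBPA1 and F3H2 were among these 4, whereas CHS1, PAL and ANR were not. As the study chose the 8 genes on the same arrays, they are not independent evidence of a direction.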

How the data were processed

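Total RNA of Sultana leaves was hybridized to custom one-color 60-mer arrays. The authors deposited, per array, background-subtracted spot intensities (processed signal) from Feature Extraction 10.5.1.1, and a table of the whole series with intensities scaled to the 75th percentile. From the processed signal, log2 minus the 75th percentile over 34369 gene probes (1 per gene) was computed; the 1417 control spots were removed, and spots marked as outliers became missing values. Groups came from the labels. Differences and standard errors are from limma 3.58.1 (lmFit, eBayes; 4 residual degrees of freedom) in R 4.3.3, without covariates, with Benjamini-Hochberg adjustment over all genes, and the permutation test from SciPy 1.17.1. Tables and pictures were made with pandas 2.3.3, NumPy 2.4.6 and matplotlib 3.10.9. Simulated data were used to test the limma code. Errors and p-values cover only the spread between these lines, and the small number of arrays limits their precision.

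The genes named are the 6 genes, VvWRKY26, the other UDP-glycosyltransferases and flavonoid genes that the study annotates, the leaf markers, the neighbours by identifier, and the 5 genes most alike in profile. Members and lists were chosen with earlier results of these data known. Alternatives were normexp (offset 50, on median spot intensities), quantile normalization, no scaling, the authors' table, a floor for or filter on dim spots, outliers kept, array weights, blocks for scan, slide and replicate number, each array left out, and the methods' t-test. Replicate numbers do not pair arrays: only replicates 1 share a scan. No coordinates or sequences are given, since the genome table used here belongs to a different assembly without these identifiers.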

Additional observations from a re-analysis of the deposited data

How the results depend on the processing

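The 6 genes were higher in the over-expressing lines under every alternative tried, a direction set by their choice. The blocks, the floor or filter for dim spots and outliers kept could not change the 6 differences, which were the same. Under every alternative, 0 genes passed an adjusted p of 0.05 in limma or in the methods' t-test. At an unadjusted p under 0.05 there were 145 (no scaling) to 1822 (scan as a block). Genes whose groups did not overlap numbered 4 (2.43% of all genes), but 2 with normexp background correction and 1 without scaling. Those above all controls in 35S:VvWRKY26 replicate 2 numbered 4 (14.0% of all genes), and likewise 2 and 1. Shares of all genes were not computed with normexp or without scaling, for these counts or for 2-fold genes. The cause was not tested. With normexp, 4 of the 6 were at least 2-fold higher, the median difference was 1.14 and that of g00240 was 0.55, while the median of all genes moved from −0.05 to −0.33; without scaling that median was 0.08. With each array left out in turn, the median difference lay between 1.10 and 1.87 and the median r was 0.789 to 0.882. The genes at least 2-fold higher numbered 4 (without control replicate 3, or without 35S:VvWRKY26 replicate 3) to 6. Those with groups apart numbered 4 to 6, and those above the controls in 35S:VvWRKY26 replicate 2 numbered 4 to 5. Groups apart numbered 6 only without 35S:VvWRKY26 replicate 2, on the arrays that chose the genes. Smaller groups are also more easily apart. Except for 2-fold without that array (5.18% of all genes), shares of all genes were not computed here. Nothing is read from these counts. With replicate number as a block the median difference was 1.43 and 246 genes had an unadjusted p under 0.05, against 355. The numbers do not pair the arrays, since deviations of same-numbered arrays correlated at 0.63, −0.28 and −0.41, the first of these within 1 scan; the block changed no call. Blocks and array weights give no values for overlap or r, and the authors' table none for 35S:VvWRKY26 replicate 2. The spots of g00240 lay near background, and of the 6 differences its own moved most with normexp, from 1.52 to 0.55. The size of its difference thus depends on the background correction. Whether the low intensity was the reason was not tested.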
